A study of Mus musculus with 18 samples.

Results

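The 10 genes described here are outputs of the circadian clock, transcripts whose levels in liver are known to follow the core clock: Dbp, Tef, Hlf, Nfil3, Bhlhe40, Bhlhe41, Ciart, Upp2, Usp2 and Wee1. They were matched exactly by symbol, and each was found once among the 50600 genes of the 1 day table and once among the 17127 genes of the 12 hour table. All 10 had enough counts to be tested in both tables. RNA was sequenced from 18 whole livers of C57BL/6 mice, 3 per group in 6 groups, with an age of 12 weeks in the labels. The labels number the livers of a group without saying that each came from a separate mouse, so p-values measure the spread between these samples. At 1 day after the operation the groups were HMRKO + MI, HMRKO + sham, LC + MI and LC + sham, and at 12 hours they were C57 + MI and C57 + sham. HMRKO mice carry MR flox/flox alleles and Cre driven by the albumin promoter, which removes the mineralocorticoid receptor (MR, the gene Nr3c2) from hepatocytes, whereas other liver cells keep it. LC mice are littermates with the MR flox/flox alleles and without Cre, given as wild type in the labels, and C57 mice are wild type. MI is myocardial infarction, caused by tying off the left anterior descending artery of the heart for good under isoflurane, and sham mice had the same surgery without tying the artery. An operation is not named in the labels for the 1 day MI livers, nor a time after surgery for any liver, and both were taken from the study design.

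In the mammalian clock, CLOCK and BMAL1 bind E-boxes and switch on the genes of their own repressors and of output factors. DBP, TEF and HLF, the PAR bZIP factors, are such outputs. They activate genes through D-boxes, and NFIL3 represses through the same sites. In liver this layer is known for driving daily rhythms of genes of drug, bile acid and lipid metabolism. BHLHE40, BHLHE41 and CIART repress CLOCK and BMAL1, and Upp2, Usp2 and Wee1 encode rhythmic enzymes. A daily rhythm was not measured here, since each group was sampled at a single time after surgery. The sources used here do not state the hour at which livers were taken, and for every comparison below the operation or genotype and the time of day cannot be told apart.

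Total counts ran between 19098704 and 28945526 per liver at 1 day. At 12 hours they were 16745645 to 19190405 in the C57 + MI livers, against 1361506 to 2255782 in the C57 + sham livers, a depth gap that cannot be told apart from the operation. Values below are counts per 1000000 counts of a library (CPM) after TMM scaling, a scaling that sets libraries on a common footing from the bulk of their genes. CPM were computed within each table and are not compared between 1 day and 12 hours or between genes of different length. Mitochondrially encoded genes took 8.68% to 9.10% of the counts in HMRKO + MI livers, against 10.1% to 15.6% in HMRKO + sham livers, and 10.9% to 18.9% in LC + MI livers, the highest in replicate 1, against 7.53% to 9.65% in LC + sham livers. This share was thus lower with MI in HMRKO livers and higher with MI in LC livers, with no overlap between the groups of any comparison at 1 day, and its part in the results was not tested beyond leaving these genes out. Nr3c2 had 0.895, 1.10 and 0.913 CPM in HMRKO + MI livers, against 3.56, 2.13 and 1.90 CPM in LC + MI livers. In HMRKO + sham livers it had 2.93, 3.76 and 2.55 CPM, against 5.60, 6.70 and 4.71 CPM in LC + sham livers, so the genotypes did not overlap after either operation and within an operation no liver went against its label. HMRKO + sham livers still held a mean of 3.08 CPM, against 5.67 CPM in LC + sham livers, and their range overlapped that of LC + MI livers. The genotype difference passed after MI (log2 fold change −1.36) and not after sham operation (−0.88), and Nr3c2 also fell with MI, with log2 fold changes of −1.65 in HMRKO livers and −1.18 in LC livers.

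The promoters of members that hold a known clock motif are shown here, since these motifs are how the core clock reaches its output genes. RefSeq promoters (GRCm38.p6, 250 bases before to 50 bases after the start site) were matched for 8 of the 10 members (all but Bhlhe40 and Wee1), 10 promoters in all. Each was searched on both strands for the E-box CACGTG, which reads the same on both strands, the variant CACGTT, the D-box TTATGTAA or TTACGTAA, and the ROR element core TAGGTCA or TGGGTCA, through which REV-ERB and ROR receptors act. No searched motif overlapped another in these promoters. An E-box lay in 4 of the 10 promoters, of Ciart, Bhlhe41 and both starts of Tef, and 7.15% of all 32851 promoters of this length hold it. The Ciart promoter held 3 E-boxes, whose first letters lay 116, 58 and 44 bases before the start site. A ROR element core lay 12 bases before the start of Nfil3, on the other strand and so printed as TGACCTA, and 6.45% of all promoters hold it. No promoter of a member held the D-box (1.06% of all promoters) or the variant CACGTT (4.68% of all promoters). The sequences, 5′ to 3′ in the direction of transcription, have these matches in capitals.
Ciart, chr3:95882179-95882478, minus strand: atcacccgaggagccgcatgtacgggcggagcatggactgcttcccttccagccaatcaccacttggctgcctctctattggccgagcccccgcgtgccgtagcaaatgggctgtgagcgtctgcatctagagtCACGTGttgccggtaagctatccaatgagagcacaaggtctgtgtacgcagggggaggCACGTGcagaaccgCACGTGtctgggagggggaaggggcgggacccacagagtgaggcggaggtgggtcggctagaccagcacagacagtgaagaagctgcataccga
Bhlhe41, chr6:145865371-145865670, minus strand: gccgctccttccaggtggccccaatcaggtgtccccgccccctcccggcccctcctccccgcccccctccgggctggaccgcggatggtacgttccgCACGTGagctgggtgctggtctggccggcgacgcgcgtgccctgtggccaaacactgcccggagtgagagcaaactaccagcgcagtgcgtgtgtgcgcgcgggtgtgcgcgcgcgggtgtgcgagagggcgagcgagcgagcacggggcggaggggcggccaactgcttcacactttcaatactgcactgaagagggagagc
Tef, upstream start, chr15:81802423-81802722, plus strand: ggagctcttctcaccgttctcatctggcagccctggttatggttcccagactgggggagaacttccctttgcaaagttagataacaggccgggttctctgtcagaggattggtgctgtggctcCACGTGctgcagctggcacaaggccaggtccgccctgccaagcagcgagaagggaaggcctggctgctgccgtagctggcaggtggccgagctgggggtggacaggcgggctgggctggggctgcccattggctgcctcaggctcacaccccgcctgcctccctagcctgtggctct
Tef, downstream start, chr15:81811164-81811463, plus strand: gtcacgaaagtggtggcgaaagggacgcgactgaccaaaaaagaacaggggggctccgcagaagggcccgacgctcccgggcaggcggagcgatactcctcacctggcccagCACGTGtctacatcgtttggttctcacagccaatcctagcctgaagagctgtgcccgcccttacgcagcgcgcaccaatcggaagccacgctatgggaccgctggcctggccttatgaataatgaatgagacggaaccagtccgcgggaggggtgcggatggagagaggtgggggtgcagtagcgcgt
Nfil3, chr13:52980990-52981289, minus strand: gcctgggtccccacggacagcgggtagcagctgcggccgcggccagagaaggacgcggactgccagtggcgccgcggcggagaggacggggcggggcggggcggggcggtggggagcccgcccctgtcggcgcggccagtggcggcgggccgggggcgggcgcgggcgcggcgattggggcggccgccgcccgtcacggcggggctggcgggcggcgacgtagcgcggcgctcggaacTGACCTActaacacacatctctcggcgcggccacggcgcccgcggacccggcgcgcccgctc
A match is a run of letters in this window and says nothing of binding in these livers. No searched motif lay in the promoters of Dbp, Hlf and Usp2 or in either promoter of Upp2, and these are not shown.

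The first comparison asks what MI did to these genes in the liver of control mice. At 1 day 7 of the 10 clock output genes fell in LC + MI livers and none rose, while 3 did not pass, where passing means an adjusted p under 0.05 from edgeR. Of all 14266 genes tested, 5.00% passed in this comparison, 2.68% higher and 2.33% lower. Groups that do not overlap were found for 12.6% of all genes with MI higher and for 12.1% with MI lower. The median log2 fold change of the 10 genes was −1.35, against 0.0079 over all genes tested. The largest differences were those of Dbp and Upp2, followed by the clock repressor Ciart. In whole liver, fewer cells of a type and less RNA per cell cannot be told apart.

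Among the PAR bZIP activators, Dbp (ENSMUSG00000059824, chromosome 7) had 14.5, 7.76 and 6.19 CPM in LC + MI livers, against 192, 180.0 and 215 CPM in LC + sham livers. The highest LC + MI liver was far below the lowest LC + sham liver, and the log2 fold change was −4.37 (SE 0.27, adjusted p = 4.6e-06 from edgeR), a 20.7-fold lower level. Tef (ENSMUSG00000022389, chromosome 15) had 145, 109 and 113 CPM in LC + MI livers, against 253, 209 and 248 CPM in LC + sham livers. Its fall was smaller and also without overlap (log2 fold change −0.95, SE 0.15, adjusted p = 0.00603 from edgeR). Hlf (ENSMUSG00000003949, chromosome 11), the remaining PAR bZIP gene, had 26.7, 29.4 and 29.5 CPM in LC + MI livers, against 23.5, 28.7 and 34.0 CPM in LC + sham livers. These ranges overlapped and the difference was −0.0079 on the log2 scale, with a 95% interval of −0.39 to 0.38. The 3 genes that encode activators of the same sites thus had a large, a moderate and no detected fall.

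Nfil3 (ENSMUSG00000056749, chromosome 13), the repressor at D-boxes, had 55.6, 34.7 and 31.4 CPM in LC + MI livers, against 28.6, 28.1 and 15.8 CPM in LC + sham livers. Every LC + MI liver lay above every LC + sham liver, as for 12.6% of all genes tested, but the log2 fold change of 0.74 (SE 0.34) did not pass (adjusted p = 0.218 from edgeR).

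Of the repressors of CLOCK and BMAL1, Ciart (ENSMUSG00000038550, chromosome 3) had 3.41, 3.38 and 3.87 CPM in LC + MI livers, against 12.2, 21.5 and 24.8 CPM in LC + sham livers. The MI livers were nearly alike and all below the sham livers (log2 fold change −2.45, SE 0.28, adjusted p = 0.00121 from edgeR). Bhlhe41 (ENSMUSG00000030256, chromosome 6), which encodes DEC2, had 1.65, 1.61 and 1.35 CPM in LC + MI livers, against 2.87, 3.44 and 5.04 CPM in LC + sham livers. It fell by 1.30 on the log2 scale (SE 0.26, adjusted p = 0.0170 from edgeR) at low counts, 33 to 40 in the LC + MI livers. Its paralog Bhlhe40 (ENSMUSG00000030103, chromosome 6), which encodes DEC1, had 19.7, 56.2 and 41.6 CPM in LC + MI livers, against 47.8, 83.5 and 45.6 CPM in LC + sham livers. These groups overlapped and the difference of −0.59 (SE 0.37) did not pass (adjusted p = 0.387 from edgeR).

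Among the enzymes, Upp2 (ENSMUSG00000026839, chromosome 2), a uridine phosphorylase of liver, had 30.5, 6.67 and 15.7 CPM in LC + MI livers, against 246, 444 and 250.5 CPM in LC + sham livers. Its log2 fold change was −4.16 (SE 0.47, adjusted p = 0.00121 from edgeR), the largest fall here after that of Dbp, and without LC + MI replicate 1 it was −4.80. Usp2 (ENSMUSG00000032010, chromosome 9), a protease that removes ubiquitin, had 8.77, 11.4 and 17.0 CPM in LC + MI livers, against 17.8, 34.7 and 45.5 CPM in LC + sham livers. The groups came close to each other, and the fall of 1.39 on the log2 scale (SE 0.36) passed narrowly (adjusted p = 0.0450 from edgeR). Wee1 (ENSMUSG00000031016, chromosome 7), the kinase that holds back entry into mitosis, had 0.952, 1.57 and 1.49 CPM in LC + MI livers, against 2.33, 5.55 and 4.63 CPM in LC + sham livers. It fell by 1.63 on the log2 scale (SE 0.30, adjusted p = 0.0125 from edgeR), also without overlap.

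Dbp, Upp2, Ciart and Tef passed in all 19 alternative settings that keep this rule for a call, and Usp2, Bhlhe41 and Wee1 did not. Under the added rule of an absolute log2 fold change over 1, which 1.44% of all genes passed as higher and 1.04% as lower, 6 of the 7 members passed and Tef did not. Usp2 did not pass without LC + MI replicate 1 (adjusted p = 0.0909), 2 (0.144) or 3 (0.0685), LC + sham replicate 2 (0.114) or 3 (0.155), HMRKO + MI replicate 2 (0.0610), or HMRKO + sham replicate 1 (0.0640), 2 (0.0549) or 3 (0.0617). Bhlhe41 did not pass without LC + MI replicate 2 (adjusted p = 0.0601) or 3 (0.0726) or LC + sham replicate 3 (0.0547). In an edgeR fit to the 6 LC livers alone 4 members passed, and Usp2 (adjusted p = 0.0840), Bhlhe41 (0.0517) and Wee1 (0.0617) did not. Over all alternatives the adjusted p ran between 0.000764 and 0.155 for Usp2, 0.000485 and 0.0726 for Bhlhe41, and 7.83e-05 and 0.0617 for Wee1.

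**Figure D1:**
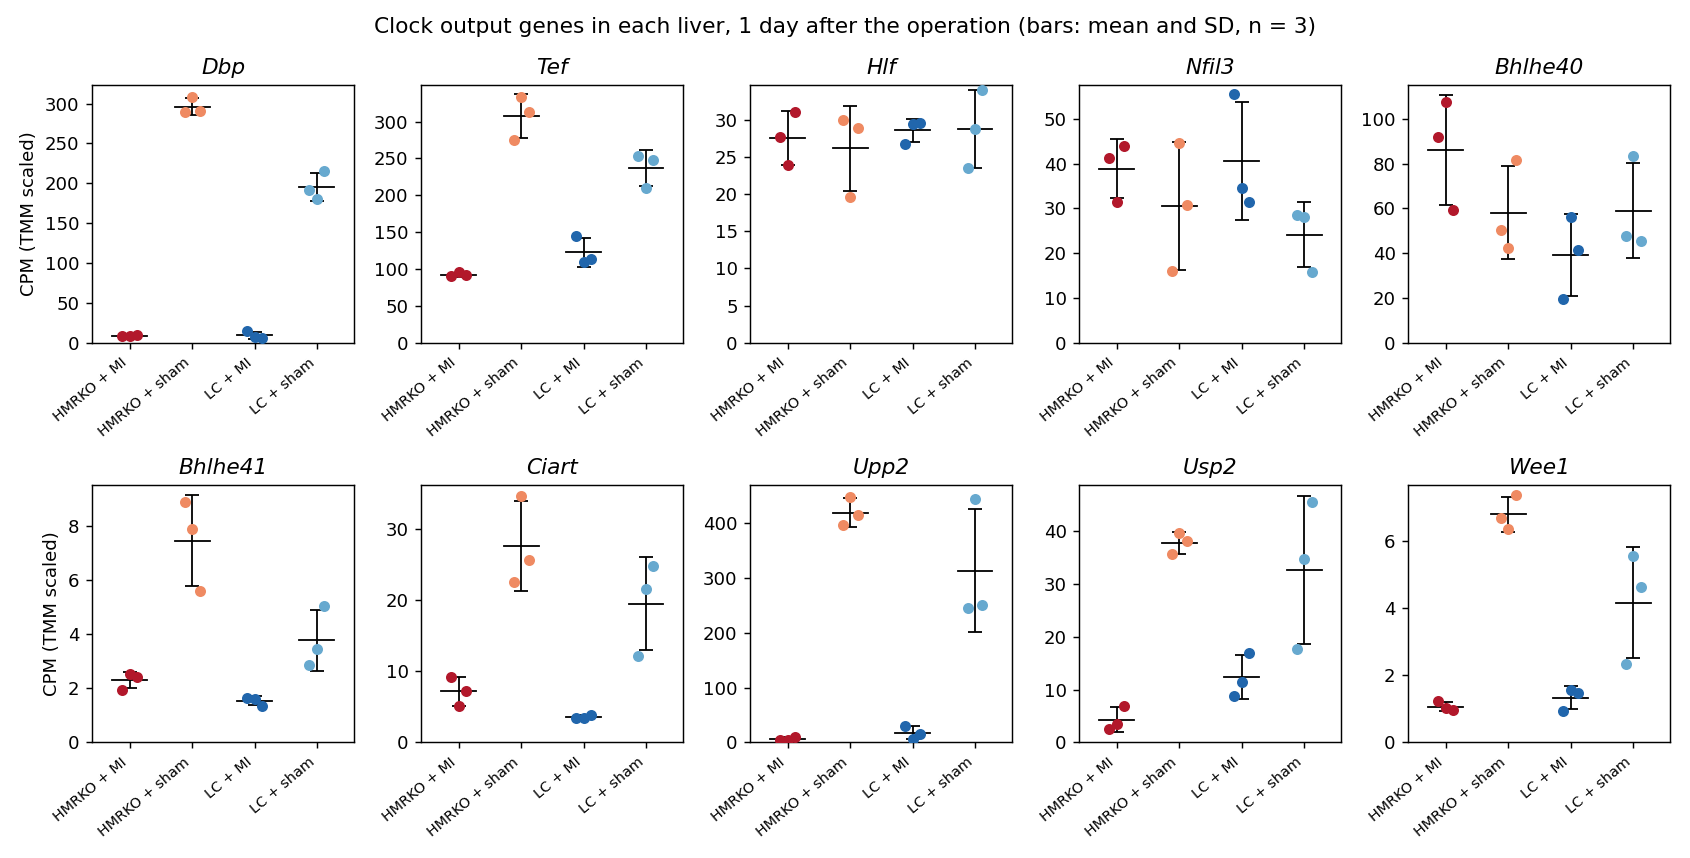
CPM after TMM scaling (vertical axis from 0, a scale per gene) of the 10 clock output genes in the 12 livers at 1 day, by group along the horizontal axis; each point is a liver and the bars give the mean and SD of 3 livers. Dbp and Upp2 lie near the foot of the axis in all 6 MI livers (at most 14.5 and 30.5 CPM) and at 180.0 CPM or more and 246 CPM or more in all 6 sham livers, whereas the Hlf groups overlap.

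The next comparison repeats the operation in mice without hepatocyte MR. In HMRKO + MI livers 7 of the 10 clock output genes fell relative to HMRKO + sham livers and none rose, and the other 3 were Hlf, Nfil3 and Bhlhe40. Far more of all genes passed in this comparison, 43.7%, with 22.0% higher and 21.7% lower. The median log2 fold change of the 10 genes was −1.84, against 0.0055 over all genes. Groups that do not overlap were found for 28.2% of all genes with MI higher and for 27.5% with MI lower. All 7 calls held in all 19 alternative settings and under the added rule of an absolute log2 fold change over 1, which 9.06% of all genes passed as higher and 11.4% as lower.

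Dbp had 7.94, 8.22 and 9.90 CPM in HMRKO + MI livers, against 289, 308 and 291 CPM in HMRKO + sham livers. Both groups were tight and 34.1-fold apart (log2 fold change −5.09, SE 0.28, adjusted p = 9.56e-07 from edgeR). Tef had 90.1, 95.4 and 91.7 CPM in HMRKO + MI livers, against 274, 334 and 314 CPM in HMRKO + sham livers, a log2 fold change of −1.73 (SE 0.15, adjusted p = 1.52e-05 from edgeR). Hlf had 27.6, 23.9 and 31.1 CPM in HMRKO + MI livers, against 29.9, 19.6 and 28.9 CPM in HMRKO + sham livers. Its groups overlapped, with a difference of 0.072 on the log2 scale (95% interval −0.32 to 0.46).

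Nfil3 had 41.2, 31.4 and 43.9 CPM in HMRKO + MI livers, against 16.1, 44.7 and 30.9 CPM in HMRKO + sham livers. The sham livers spanned the MI livers and the log2 difference of 0.35 (SE 0.34) did not pass (adjusted p = 0.421 from edgeR). Bhlhe40 had 91.8, 107 and 59.4 CPM in HMRKO + MI livers, against 50.4, 42.5 and 81.5 CPM in HMRKO + sham livers, overlapping groups with a log2 difference of 0.57 (SE 0.37, adjusted p = 0.229 from edgeR). Bhlhe41 had 1.96, 2.52 and 2.44 CPM in HMRKO + MI livers, against 8.88, 7.90 and 5.62 CPM in HMRKO + sham livers. It fell by 1.69 on the log2 scale (SE 0.25, adjusted p = 0.00028 from edgeR). Ciart had 9.23, 5.15 and 7.21 CPM in HMRKO + MI livers, against 22.5, 34.7 and 25.7 CPM in HMRKO + sham livers, a log2 fold change of −1.95 (SE 0.27, adjusted p = 0.000199 from edgeR).

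The 3 enzymes had their deepest falls at 1 day in these livers. Upp2 had 4.98, 5.29 and 9.64 CPM in HMRKO + MI livers, against 396, 448 and 414 CPM in HMRKO + sham livers. The level was 63.2-fold lower (log2 fold change −5.98, SE 0.52, adjusted p = 1.4e-05 from edgeR). Usp2 had 2.46, 3.43 and 6.95 CPM in HMRKO + MI livers, against 35.6, 39.7 and 38.1 CPM in HMRKO + sham livers, a log2 fold change of −3.14 (SE 0.40, adjusted p = 0.000111 from edgeR). Wee1 had 1.23, 1.02 and 0.964 CPM in HMRKO + MI livers, against 6.70, 6.36 and 7.37 CPM in HMRKO + sham livers, a log2 fold change of −2.67 (SE 0.31, adjusted p = 7.04e-05 from edgeR). For all 3 enzymes every MI liver was below every sham liver.

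Sums of cell type markers separated MI from sham livers for some lists and overlapped for others. The 8 neutrophil markers summed to 4461 to 5172 CPM in LC + MI livers, against 448 to 2094 CPM in LC + sham livers, and to 4975 to 8998 CPM in HMRKO + MI livers, against 772 to 1177 CPM in HMRKO + sham livers. Of the 7 neutrophil markers tested, 1 passed as higher with MI in LC livers and 6 in HMRKO livers. The 1 in LC livers was Lcn2 (log2 fold change 1.99, adjusted p = 0.0215 from edgeR), while S100a8 and S100a9 overlapped there and did not pass. The share of Lcn2 in these sums was not separated from that of the other markers, so the sums are not a measure of neutrophil number. The 10 hepatocyte markers summed to 63386 to 69354 CPM in LC + MI livers, against 74414 to 76881 CPM in LC + sham livers, and to 69133 to 74946 CPM in HMRKO + MI livers, against 46799.9 to 64785 CPM in HMRKO + sham livers. The hepatocyte sum was lower with MI in LC livers, where 3 of the 10 markers passed as lower and 0 as higher. In HMRKO livers the sum was higher with MI, and 2 of the 10 passed as higher and 0 as lower. The 8 Kupffer cell markers summed to 110 to 115 CPM in LC + MI livers, against 152 to 206 CPM in LC + sham livers, and to 70.7 to 143 CPM in HMRKO + MI livers, against 112 to 147 CPM in HMRKO + sham livers. Of these, 2 passed as lower with MI in LC livers, and 2 as lower and 1 as higher in HMRKO livers. The 8 lymphocyte markers summed to 1.769 to 2.004 CPM in LC + MI livers, against 2.54 to 6.82 CPM in LC + sham livers, and to 0.730 to 1.398 CPM in HMRKO + MI livers, against 2.64 to 4.34 CPM in HMRKO + sham livers, with 0 and 3 of 4 tested lower in LC and HMRKO livers. The 7 erythroid markers summed to 137 to 175 CPM in LC + MI livers, against 229.8 to 293 CPM in LC + sham livers, and to 150.2 to 208 CPM in HMRKO + MI livers, against 191 to 346 CPM in HMRKO + sham livers, with 0 and 2 of 5 tested lower in LC and HMRKO livers. Sums of the 8 liver endothelial and 8 stellate cell markers overlapped between MI and sham livers in both genotypes. With MI, 2 endothelial and 3 stellate cell markers passed as higher in HMRKO livers, and 0 of either list in LC livers. No marker of these lists was at 0 in a whole group, and their part in the results was not tested.

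Whether the response to MI differed between genotypes was tested as an interaction, the MI effect in HMRKO livers minus that in LC livers. Tef and Usp2 passed and no member passed as higher, while 15.2% of all genes passed, 6.74% higher and 8.50% lower, so a count of 2 in 10 lies near the background. The fall of Usp2 with MI was deeper in HMRKO livers than in LC livers, with a log2 difference of −1.75 (SE 0.52, adjusted p = 0.0406 from edgeR), and likewise that of Tef, with −0.78 (SE 0.21, adjusted p = 0.0292 from edgeR). Of the pair only Usp2 also had an absolute log2 difference over 1, as did 3.96% of all genes on the higher and 6.14% on the lower side. Upp2 had a difference of −1.83 (SE 0.61) that did not pass (adjusted p = 0.0581 from edgeR) but passed with DESeq2 (adjusted p = 0.0148). For Dbp the difference was −0.72 (SE 0.34, adjusted p = 0.163), for Wee1 −1.04 (SE 0.43, adjusted p = 0.111) and for Bhlhe40 1.16 (SE 0.52, adjusted p = 0.141), all from edgeR. The median over the 10 genes was −0.56, against 0.0018 over all genes.

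Neither call held with every liver left out in turn. Tef did not pass without HMRKO + MI replicate 1 (adjusted p = 0.0598), 2 (0.0562) or 3 (0.0551), HMRKO + sham replicate 2 (0.0620) or 3 (0.0600), LC + MI replicate 1 (0.0562) or LC + sham replicate 2 (0.0733). Usp2 did not pass without HMRKO + MI replicate 1 (adjusted p = 0.0854) or 2 (0.0939), HMRKO + sham replicate 1 (0.0604), 2 (0.0809) or 3 (0.0712), LC + MI replicate 3 (0.0881) or LC + sham replicate 1 (0.0552) or 2 (0.0750). Over 18 alternatives the log2 difference stayed between −0.86 and −0.64 for Tef and between −2.27 and −1.45 for Usp2, with adjusted p between 0.00243 and 0.0733 and between 0.00223 and 0.0939 by gene. Upp2 passed without LC + MI replicate 2 (adjusted p = 0.0132) or HMRKO + MI replicate 3 (0.0489), with adjusted p between 0.0046, without a filter on low counts, and 0.149 over its alternatives.

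The comparison of the genotypes after MI shares its livers with the comparisons above. In HMRKO + MI livers 4 of the 10 genes differed from LC + MI livers, the clock repressors Bhlhe40 and Ciart higher and the enzymes Upp2 and Usp2 lower. Of all genes, 30.8% passed here, 14.6% higher and 16.2% lower, so a count of 4 in 10 lies near the background. The median log2 fold change of the 10 genes was −0.091, against −0.0069 over all genes.

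Bhlhe40 had 91.8, 107 and 59.4 CPM in HMRKO + MI livers, against 19.7, 56.2 and 41.6 CPM in LC + MI livers. The lowest HMRKO + MI liver was only just above the highest LC + MI liver, and LC + MI replicate 1 was the lowest of all (log2 fold change 1.14, SE 0.37, adjusted p = 0.0358 from edgeR). Ciart was 1.00 higher on the log2 scale (SE 0.28, adjusted p = 0.0191 from edgeR), with 9.23, 5.15 and 7.21 CPM in HMRKO + MI livers, against 3.41, 3.38 and 3.87 CPM in LC + MI livers. Usp2 was lower in every HMRKO + MI liver (2.46, 3.43 and 6.95 CPM) than in every LC + MI liver (8.77, 11.4 and 17.0 CPM), with a log2 fold change of −1.54 (SE 0.39, adjusted p = 0.0113 from edgeR). Upp2, with 4.98, 5.29 and 9.64 CPM in HMRKO + MI livers, against 30.5, 6.67 and 15.7 CPM in LC + MI livers, passed although the groups overlapped (log2 fold change −1.41, SE 0.44, adjusted p = 0.0303 from edgeR).

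Of the other 6 genes, Tef was lower in HMRKO + MI livers without overlap, by 0.41 on the log2 scale, but passed only with DESeq2 (adjusted p = 0.0549 from edgeR and 0.0240 from DESeq2, the lowest of its alternatives, which reached 0.207). Bhlhe41 was higher without overlap by 0.59 (adjusted p = 0.103 from edgeR). Groups that do not overlap were found for 24.1% of all genes with HMRKO + MI higher and for 24.7% with it lower. Dbp, which MI had left at 6.19 to 14.5 CPM in all 6 livers, differed by −0.12 on the log2 scale (95% interval −0.66 to 0.42).

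Of the 4 calls, that of Usp2 held in all 19 alternative settings that keep the rule for a call. Only Usp2 passed when LC + MI replicate 1, which had the 18.9% mitochondrial share, was left out, with adjusted p of 0.115 for Bhlhe40, 0.0615 for Ciart and 0.180 for Upp2, whose log2 fold change was then −0.76. Without HMRKO + MI replicate 1 only Usp2 passed (0.0807, 0.0748 and 0.0990 for Bhlhe40, Ciart and Upp2), and without HMRKO + MI replicate 2 neither Bhlhe40 (0.114) nor Upp2 (0.1000) passed. Bhlhe40 also did not pass without LC + MI replicate 3 (0.0697), and Upp2 did not pass in a fit to the 6 MI livers alone (0.0626). Over the alternatives the adjusted p from edgeR or DESeq2 ran between 0.00304 and 0.115 for Bhlhe40, 0.00247 and 0.0748 for Ciart, and 0.0014 and 0.180 for Upp2.

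After sham operation no clock output gene passed between HMRKO + sham and LC + sham livers, by edgeR or by DESeq2, in a comparison where 0.0350% of all genes passed (5 of 14266), 0.0210% higher and 0.0140% lower. At an unadjusted p under 0.05 from edgeR there were 4 members, Dbp, Tef, Bhlhe41 and Wee1, against 5.87% of all genes. All 4 were higher in every HMRKO + sham liver than in every LC + sham liver, as for 5.36% of all genes, while no member lay below without overlap, as did 5.78% of all genes. The log2 fold change was 0.60 for Dbp (SE 0.24), 0.37 for Tef (SE 0.15), 0.98 for Bhlhe41 (SE 0.24) and 0.71 for Wee1 (SE 0.28). Their adjusted p values were 0.745, 0.745, 0.334 and 0.743 from edgeR. The median of the 10 genes was 0.40, against −0.0099 over all genes. Summed hepatocyte markers were at 46799.9 to 64785 CPM in HMRKO + sham livers, against 74414 to 76881 CPM in LC + sham livers, 5 of 8 Kupffer cell markers lay below without overlap though none passed, and the mitochondrial share was 10.1% to 15.6%, against 7.53% to 9.65%. Their part in the values of the members was not tested. This comparison shares its livers with the 2 comparisons of MI with sham.

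**Figure D2:**
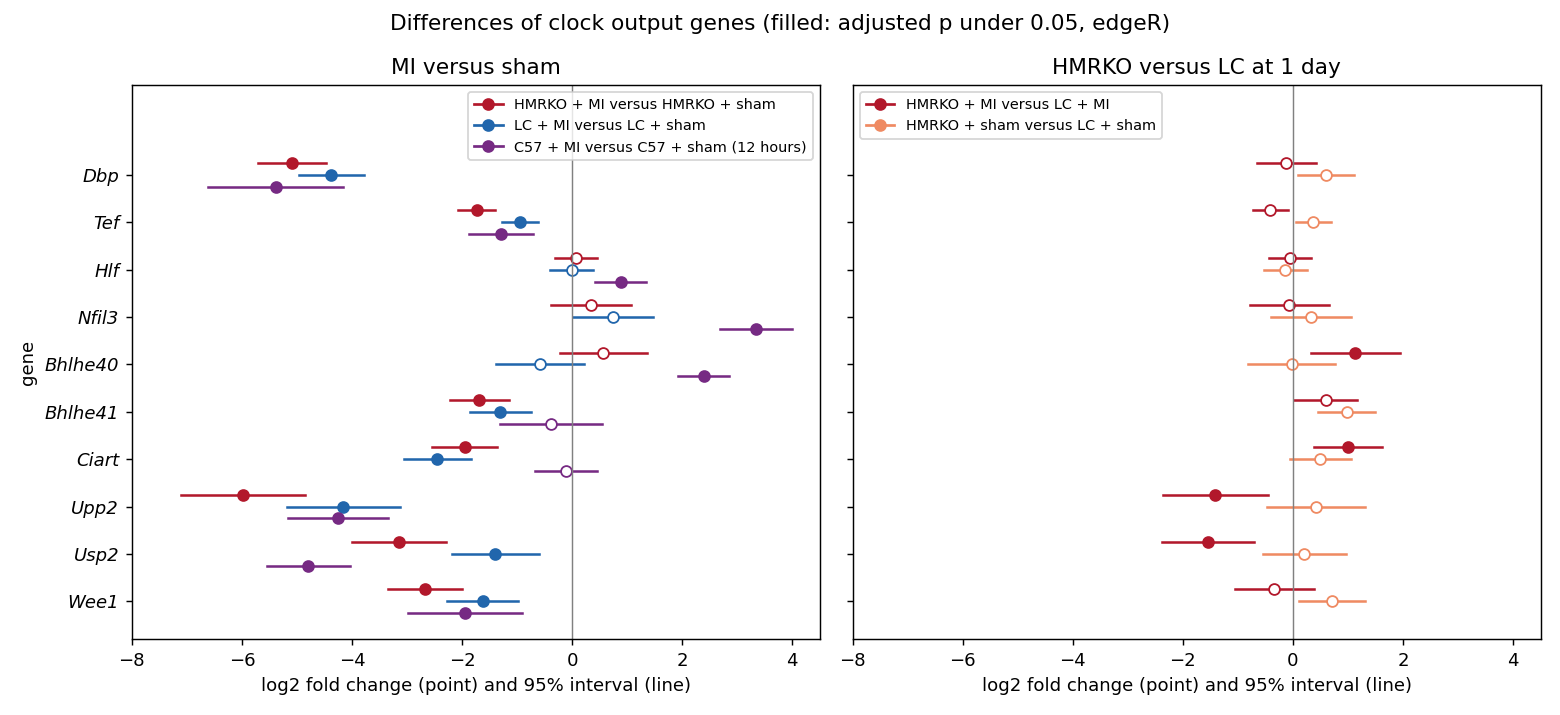
Log2 fold changes (points) with 95% intervals (lines) of the 10 clock output genes on the horizontal axis, for MI versus sham on the left and HMRKO versus LC on the right; filled points passed at an adjusted p under 0.05 from edgeR. Dbp, Tef, Upp2, Usp2 and Wee1 are filled and left of 0 in all 3 comparisons of MI with sham, whereas in the left panel Nfil3, Bhlhe40 and Hlf are filled and right of 0 only at 12 hours.

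The livers of C57 mice were taken earlier, at 12 hours, to see the early response to MI. In C57 + MI livers 8 of the 10 clock output genes passed, with Dbp, Tef, Upp2, Usp2 and Wee1 lower and Nfil3, Bhlhe40 and Hlf higher than in C57 + sham livers. Most genes of the table passed too, 66.2% of 12548, with 34.3% higher and 32.0% lower, so a count of 8 in 10 lies near the background. The median log2 fold change of the 10 genes was −0.84, against 0.11 over all genes, and fold changes here are best read against that shift. Groups that do not overlap were found for 37.8% of all genes with MI higher and for 34.0% with MI lower. Counts of sham livers were small for some members, and those under 70 are given beside the CPM.

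Dbp had 14.7, 2.76 and 5.04 CPM in C57 + MI livers, against 239, 341 and 362 CPM in C57 + sham livers. The fall was 41.8-fold (log2 fold change −5.39, SE 0.55, adjusted p = 1.85e-05 from edgeR), with no overlap although the MI livers differed among themselves. Tef had 129, 77.4 and 83.4 CPM in C57 + MI livers, against 180.3, 261 and 271 CPM in C57 + sham livers (log2 fold change −1.30, SE 0.26, adjusted p = 0.00139 from edgeR). Hlf had 33.3, 42.8 and 48.7 CPM in C57 + MI livers, against 23.0, 21.7 and 22.9 CPM in C57 + sham livers, from counts of 39 to 66. The MI livers were all higher in CPM (log2 fold change 0.88, SE 0.21, adjusted p = 0.00344 from edgeR), but on the log2(TPM + 1) scale, with the TPM (transcripts per 1000000) of the deposited table, the difference was 0.23 and did not pass (adjusted p = 0.344 from limma, the highest of its alternatives, which began at 0.000744).

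The repressor Nfil3 had 40.4, 72.8 and 58.7 CPM in C57 + MI livers, from counts of 575 to 1054, against 6.48, 4.75 and 5.91 CPM in C57 + sham livers, from counts of 11 to 17. It rose by 3.34 on the log2 scale (SE 0.29, adjusted p = 8.52e-06 from edgeR) with a wide gap between the groups. Bhlhe40 had 101, 138 and 113 CPM in C57 + MI livers, against 22.4, 21.4 and 23.3 CPM in C57 + sham livers, from counts of 38 to 67. It rose by 2.39 (SE 0.21, adjusted p = 8.02e-06 from edgeR), and every MI liver lay above every sham liver.

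Bhlhe41 had 6.32, 2.28 and 5.92 CPM in C57 + MI livers, against 6.48, 5.54 and 6.95 CPM in C57 + sham livers, from counts of 11 to 20. Ciart had 18.0, 10.8 and 15.5 CPM in C57 + MI livers, against 17.1, 13.8 and 17.0 CPM in C57 + sham livers, from counts of 29 to 49. Both genes had overlapping groups and did not pass, with log2 differences of −0.39 for Bhlhe41 (95% interval −1.31 to 0.54) and −0.11 for Ciart (95% interval −0.68 to 0.45). On the log2(TPM + 1) scale both were lower and passed, by 0.59 for Bhlhe41 (adjusted p = 0.0418 from limma) and by 0.58 for Ciart (adjusted p = 0.0468 from limma), the lowest values of alternatives that reached 0.779 and 0.998.

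Upp2 had 18.4, 8.84 and 22.9 CPM in C57 + MI livers, against 272, 465 and 221 CPM in C57 + sham livers, a log2 fold change of −4.26 (SE 0.41, adjusted p = 1.3e-05 from edgeR). Usp2 had 13.8, 6.56 and 9.94 CPM in C57 + MI livers, against 353, 284 and 208 CPM in C57 + sham livers, a 27.8-fold fall (log2 fold change −4.80, SE 0.34, adjusted p = 4.34e-06 from edgeR). Wee1 had 0.912, 0.828 and 2.25 CPM in C57 + MI livers, from counts of 12 to 33, against 4.71, 5.14 and 5.56 CPM in C57 + sham livers, from counts of 8 to 16. It fell by 1.95 on the log2 scale (SE 0.47, adjusted p = 0.0038 from edgeR), and all 3 enzymes were below sham in every MI liver. Dbp had a log2 fold change of −6.33 without C57 + MI replicate 1, and Wee1 of −2.62 without C57 + MI replicate 3. In the 12 alternative settings that keep the rule for a call the 8 calls held, with the exception of Hlf on the TPM scale. Hlf also did not pass the added rule of an absolute log2 fold change over 1, which the other 7 passed, as did 25.5% of all genes on the higher and 26.7% on the lower side.

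On that TPM scale the shift of all genes was different, with a median of −0.37, against 0.11 in the edgeR fit, and 30.8% of the genes that passed were higher, against 51.7%. On the TPM scale the log2 difference was −6.06 for Dbp, −1.90 for Tef, −1.34 for Wee1, 2.48 for Nfil3 and 1.68 for Bhlhe40. Relative to either median, Nfil3, Bhlhe40 and Hlf were higher and Dbp, Tef, Upp2, Usp2 and Wee1 were lower, while the values of −0.59 for Bhlhe41 and −0.58 for Ciart lay a little below the median of −0.37. The 1 added before the log shrinks differences at low TPM. Mean TPM in C57 + MI and C57 + sham livers were 0.890 and 1.79 for Bhlhe41 and 0.447 and 2.63 for Wee1. The values of −0.59 and −1.34 for these genes are thus understated. The 10 hepatocyte markers summed to 80064 to 117595 CPM in C57 + MI livers, against 33805 to 35849 CPM in C57 + sham livers, and 7 of the 10 passed as higher. The 8 neutrophil markers summed to 9794 to 19042 CPM in C57 + MI livers, against 783 to 1106 CPM in C57 + sham livers, with 6 higher and 2 lower. The 7 lymphocyte markers summed to 1.43 to 2.21 CPM in C57 + MI livers, against 4.35 to 8.25 CPM in C57 + sham livers, where Klrb1c was at 0. The 8 stellate cell markers summed to 125 to 174 CPM in C57 + MI livers, against 248 to 392 CPM in C57 + sham livers, with 5 of 7 tested lower. The 8 liver endothelial markers summed to 207 to 220 CPM in C57 + MI livers, against 290 to 473 CPM in C57 + sham livers. Of these, 2 passed as lower and 1 as higher. Sums of the 8 Kupffer cell and 7 erythroid markers overlapped between C57 + MI and C57 + sham livers. The part of these shifts and of the depth gap in the values of the members was not tested.

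**Figure D3:**
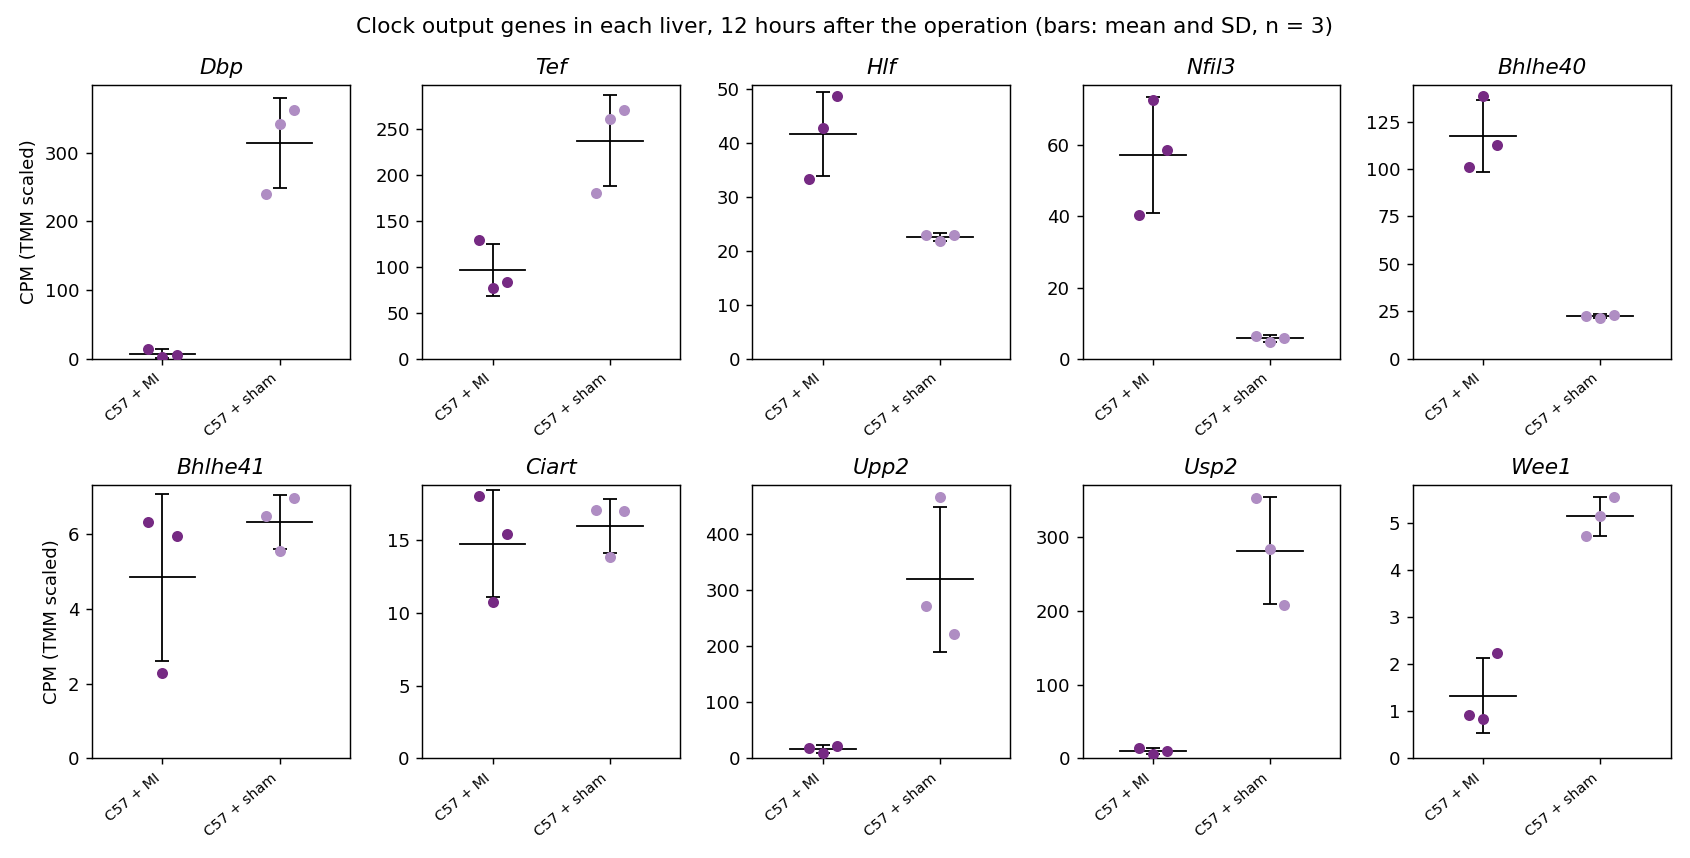
CPM after TMM scaling (vertical axis from 0, a scale per gene) of the 10 clock output genes in the 6 livers at 12 hours, C57 + MI on the left and C57 + sham on the right; each point is a liver and the bars give the mean and SD of 3 livers. Nfil3 lies at 40.4 to 72.8 CPM in MI livers and 4.75 to 6.48 CPM in sham livers, and Usp2 at 6.56 to 13.8 CPM and 208 to 353 CPM in the same order.

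TPM are scaled to transcript length, so at 12 hours the members can be ordered among themselves by level. In C57 + MI livers the order by mean TPM was Bhlhe40 (41.7 ± 6.06), Nfil3 (32.6 ± 8.66), Tef (26.4 ± 7.75), Ciart (9.84 ± 2.08), Hlf (9.04 ± 1.80), Upp2 (8.01 ± 3.69), Dbp (5.46 ± 4.64), Usp2 (3.57 ± 1.36), Bhlhe41 (0.890 ± 0.416) and Wee1 (0.447 ± 0.280; SD, n = 3 each). In C57 + sham livers it was Dbp (369 ± 84.0), Upp2 (237 ± 101), Usp2 (156 ± 37.3), Tef (100.5 ± 22.7), Ciart (15.1 ± 2.78), Bhlhe40 (12.3 ± 0.526), Hlf (7.48 ± 0.310), Nfil3 (4.92 ± 0.709), Wee1 (2.63 ± 0.263) and Bhlhe41 (1.79 ± 0.190; SD, n = 3 each). Dbp thus stood at place 7 of 10 after MI and place 1 after sham operation, and Nfil3 at places 2 and 8. In the C57 + MI livers only the steps between Tef and Ciart and between Usp2 and Bhlhe41 were free of overlap between neighbours in the order. In the C57 + sham livers only the ranges of Dbp and Upp2 and of Upp2 and Usp2 overlapped.

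**Figure D4:**
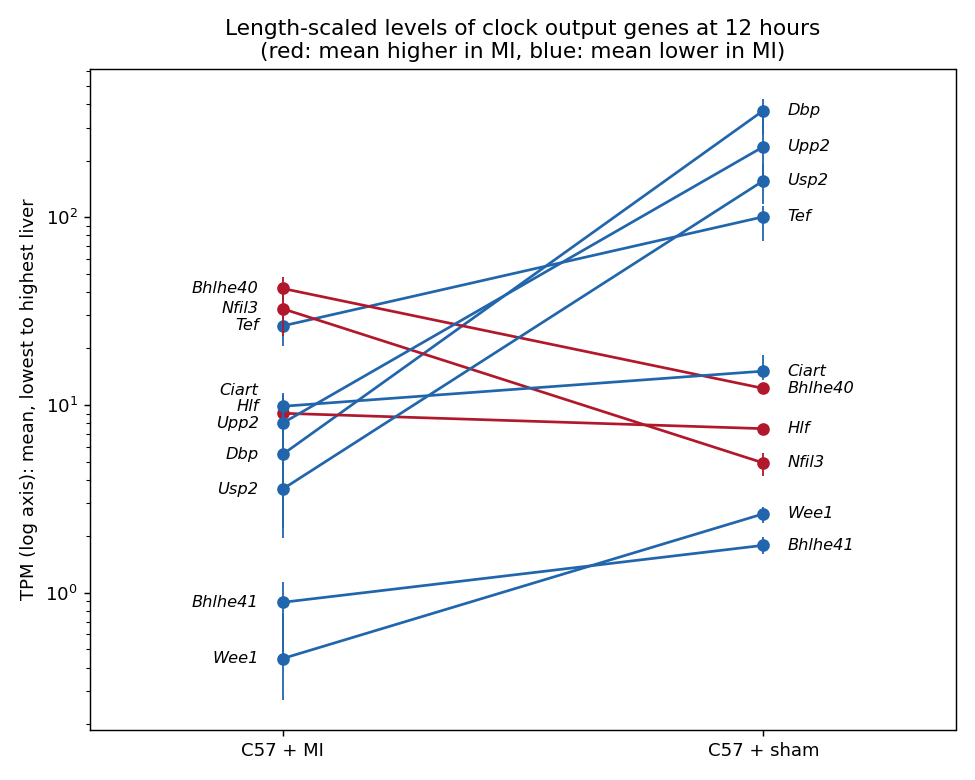
Mean TPM (vertical log axis) of the 10 clock output genes at 12 hours in C57 + MI livers on the left and C57 + sham livers on the right, with vertical lines from the lowest to the highest liver and a line joining the means of a gene (red where the mean is higher in MI, blue where it is lower). The joining lines of Nfil3 and Bhlhe40, whose mean is 32.6 and 41.7 TPM after MI, cross those of Dbp, Upp2 and Usp2, whose mean is 5.46, 8.01 and 3.57 TPM after MI.

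Side by side, the 3 comparisons of MI with sham gave Dbp log2 fold changes of −5.09 in HMRKO, −4.37 in LC and −5.39 in C57 livers, and Upp2 −5.98, −4.16 and −4.26. Usp2 had −3.14, −1.39 and −4.80 and Ciart −1.95, −2.45 and −0.11 in the same order. Nfil3 had 0.35, 0.74 and 3.34, and Bhlhe40 had 0.57, −0.59 and 2.39. The 12 hour livers came from other mice and another table than the 1 day livers, so differences between the times were not tested.

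The core clock was described as a list of 19 genes, of which 17 were tested. With MI 4 rose and 5 fell in HMRKO livers, 2 rose and 3 fell in LC livers, and 8 rose and 6 fell in C57 livers at 12 hours. Over all genes 43.7%, 5.00% and 66.2% passed in these comparisons, so the counts in HMRKO and C57 livers are to be read against a high background. The median log2 fold changes of this list were 0.28, −0.037 and 0.36, against 0.0055, 0.0079 and 0.11 over all genes. Arntl, which encodes BMAL1, rose by 3.55 in HMRKO livers (SE 0.39, adjusted p = 5.08e-05 from edgeR) and by 3.06 in LC livers (SE 0.35, adjusted p = 0.00121 from edgeR). The period gene Per3 fell by 2.08 in HMRKO livers (SE 0.14, adjusted p = 3.72e-06 from edgeR) and by 1.26 in LC livers (SE 0.14, adjusted p = 0.00121 from edgeR). Nr1d2, which encodes the repressor REV-ERB beta, fell by 1.33 in HMRKO livers (SE 0.16, adjusted p = 7.58e-05 from edgeR) and by 1.32 in LC livers (SE 0.16, adjusted p = 0.00124 from edgeR). At 12 hours the most significant of the list were the casein kinase gene Csnk1e (−2.41, SE 0.24, adjusted p = 1.42e-05 from edgeR), Per1 (2.04, SE 0.21, adjusted p = 1.98e-05) and Cry1 (2.47, SE 0.33, adjusted p = 0.000102). Between HMRKO + MI and LC + MI livers 1 of the list was higher (Per1, log2 fold change 1.12) and 1 lower (Fbxl21, −1.14), while 30.8% of all genes passed. The interaction gave 2 lower (Fbxl21 and Per3), while 15.2% of all genes passed.

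Of 10 liver genes known to depend on the PAR bZIP factors, 2 rose and 5 fell with MI in HMRKO livers, and 3 rose and 2 fell in LC livers. At 12 hours 8 were tested, of which 3 rose and 2 fell, a share close to the 66.2% of all genes that passed, while 43.7% passed in HMRKO and 5.00% in LC livers. The median log2 fold changes were −0.56, −0.90 and 0.047 in the same order. Cyp2a5, a coumarin hydroxylase gene, fell by 3.36 in HMRKO livers (SE 0.42, adjusted p = 0.000102 from edgeR) and by 1.95 in LC livers (SE 0.40, adjusted p = 0.0190 from edgeR), and its reads may be shared with the near-identical Cyp2a4. Cyp4a10, a fatty acid hydroxylase gene, rose by 1.91 in HMRKO livers (SE 0.44, adjusted p = 0.00396 from edgeR) and by 2.35 in LC livers (SE 0.45, adjusted p = 0.0143 from edgeR), with a close copy in Cyp4a14 that may share its reads. Between HMRKO + MI and LC + MI livers 2 of the list were higher and 2 lower, while 30.8% of all genes passed. The interaction gave 1 lower, while 15.2% of all genes passed. Nr1i3, which encodes the xenobiotic receptor CAR, was lower by 1.20 in HMRKO + MI than in LC + MI livers (SE 0.20, adjusted p = 0.00169 from edgeR) and had an interaction of −1.58 (SE 0.28, adjusted p = 0.00787 from edgeR). With MI, Nr1i3 rose by 0.89 in LC livers (SE 0.20, adjusted p = 0.0251 from edgeR) and fell by 0.69 in HMRKO livers (SE 0.20, adjusted p = 0.0123 from edgeR). Cyp2b10 was higher by 2.53 in HMRKO + MI than in LC + MI livers (SE 0.47, adjusted p = 0.00285 from edgeR). At 12 hours Cyp7a1, the rate-limiting enzyme of bile acid synthesis, fell by 2.32 (SE 0.42, adjusted p = 0.000709 from edgeR).

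The last list held 16 other rhythmic liver genes. With MI 6 rose and 4 fell in HMRKO livers, 3 rose and 3 fell in LC livers, and 9 rose and 2 fell in C57 livers at 12 hours, with medians of 0.58, −0.067 and 0.99. Over all genes 43.7%, 5.00% and 66.2% passed, and the share at 12 hours lies close to that background. Cdkn1a, the gene of the cell cycle inhibitor p21, rose by 7.23 in HMRKO livers (SE 0.58, adjusted p = 9.59e-06 from edgeR) and by 4.65 in LC livers (SE 0.52, adjusted p = 0.00121 from edgeR). Insig2, a regulator of sterol synthesis, rose by 3.80 in HMRKO livers (SE 0.23, adjusted p = 9.56e-07 from edgeR), by 1.57 in LC livers (SE 0.21, adjusted p = 0.00233 from edgeR) and by 3.54 at 12 hours (SE 0.28, adjusted p = 5.14e-06 from edgeR). Noct fell by 2.06 in LC livers (SE 0.29, adjusted p = 0.00301 from edgeR) and by 2.66 in HMRKO livers (SE 0.30, adjusted p = 5.24e-05 from edgeR). Between HMRKO + MI and LC + MI livers 6 of them were higher and 2 lower, while 30.8% of all genes passed. The interaction gave 3 higher and 1 lower, while 15.2% of all genes passed.

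Across the 12 livers at 1 day the log2 CPM of Dbp had a Pearson correlation of 0.97 with that of Tef and of Upp2, and of −0.15 with that of Hlf. These points share the split between MI and sham. With each group's mean removed the values were 0.73 for Tef, 0.57 for Upp2, 0.40 for Nfil3 and 0.35 for Bhlhe41. They were −0.021 for Ciart, −0.071 for Hlf, −0.15 for Usp2, −0.48 for Wee1 and −0.74 for Bhlhe40, as a description of 12 livers. Among the 14256 tested genes outside the list, those most like Dbp over the 12 livers were Eif4b (r = 0.98), Nr1d2 (0.97) and Serpina6 (0.97). Serpina6, which encodes corticosteroid-binding globulin, averaged 13.5 CPM in HMRKO + MI, 425 in HMRKO + sham, 27.9 in LC + MI and 233 in LC + sham livers. The most opposite were 1700052K11Rik (−0.98), Ssr1 (−0.97) and Sdf2l1 (−0.97), the last 2 with roles in the endoplasmic reticulum, and Sdf2l1 averaged 154 CPM in HMRKO + MI, 19.7 in HMRKO + sham, 113 in LC + MI and 31.8 in LC + sham livers.

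Some members share exons with other genes in the GENCODE M21 annotation, and the strand setting of the counting is not given in the sources used here. Dbp shares 539 of its 2993 exon bases with Sphk2 on the opposite strand, and Sphk2 had a log2 fold change of 0.86 with MI in HMRKO livers, 0.45 in LC livers and 0.87 at 12 hours, opposite in sign to Dbp. Bhlhe41 shares 1280 of 6720 exon bases with Gm43909 on the opposite strand, which had log2 fold changes of −2.19 in HMRKO and −1.61 in LC livers, so reads of these 2 genes may not be told apart. Tef, Bhlhe40 and Usp2 share 193, 118 and 200 exon bases with genes on the opposite strand, and Hlf, Nfil3, Ciart, Upp2 and Wee1 share none.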

How the data were processed

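Livers were flash frozen and RNA was taken up in Trizol for TruSeq libraries per the labels, while the study's methods give RNAlater. For the 1 day livers the authors deposited raw read counts per Ensembl gene, and for the 12 hour livers they deposited estimated counts, TPM and FPKM per Entrez gene. FPKM and the authors' means were not used. The build mm9 and the tools HISAT2 2.1.0, Bowtie2 2.2.3, DESeq2 and TopHat2 stand in the submitters' processing notes without a role, and no source used here gives the counter, annotation or strand. Total counts were 19098704 to 28945526 per liver at 1 day and 1361506 to 19190405 at 12 hours, and they limit the precision of low genes such as Wee1.

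Genes were tested with the edgeR quasi-likelihood test (edgeR 4.0.16, R 4.3.3) with TMM scaling, after a filter on low counts (filterByExpr, minimum count 10, minimum total 15). Estimated counts were rounded first. The 12 livers at 1 day were fitted together by group and the 6 at 12 hours apart, and p-values were adjusted over all genes tested (Benjamini-Hochberg). A gene passed at an adjusted p under 0.05. CPM were computed from the TMM-scaled library size, and log2 CPM for correlations used a prior count of 2. The code was tested on simulated data. Alternatives were RLE size factors, DESeq2 1.42.0, no filter and a stricter filter, no mitochondrially encoded genes, an added log2 fold change over 1, a replicate block, each liver left out in turn, only the groups compared, and, at 12 hours, log2(TPM + 1) with limma 3.58.1.

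The 10 members, the lists of core clock, PAR bZIP dependent and other rhythmic genes and the marker lists were chosen with earlier results of these data known. All members were named, with at most 3 genes per comparison from each other list (those with the smallest adjusted p) and the 3 genes most like and most opposite to Dbp. Nr1i3 was also given with MI in HMRKO livers, beside its interaction, and Noct with MI in HMRKO livers, beside its fall in LC livers.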

Additional observations from a re-analysis of the deposited data

Results flagged for a closer look

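The response to MI differed between the genotypes at 1 day for 2 of the 10 clock output genes, by the interaction test of edgeR. For Usp2 the MI effect in HMRKO livers minus that in LC livers was −1.75 on the log2 scale (95% interval −2.88 to −0.62, adjusted p = 0.0406 from edgeR). Its own fold changes were −3.14 in HMRKO and −1.39 in LC livers, and every HMRKO + MI liver was below every LC + MI liver. For Tef the difference was −0.78 (95% interval −1.24 to −0.32, adjusted p = 0.0292 from edgeR), from fold changes of −1.73 in HMRKO and −0.95 in LC livers. Neither call held in every alternative setting, and 15.2% of all genes tested passed the same test.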

How the results depend on the processing

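Depth limits the 12 hour sham livers most, with counts of 8 to 20 behind the levels of Wee1, Nfil3 and Bhlhe41. Of 1060 refits of a single gene, 989 kept direction and call, 42 lost the call, 7 gained it and 22 turned the direction of a difference that had not passed, and the cause was not tested.

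The number of members passing between LC + MI and LC + sham livers was 4 when only the LC livers were fitted and 5 to 7 with a liver left out. Between HMRKO + MI and LC + MI livers it was 1 to 4 with a liver left out, and the interaction gave 1 with the added fold rule and 0 to 3 with a liver left out. Over all genes, LC + MI versus LC + sham gave 714 calls, against 1307 with DESeq2, 1151 without a filter, 355 with the fold rule, 312 in the LC livers alone and 176 to 1117 with a liver left out. HMRKO + MI versus HMRKO + sham gave 6237, against 2914 with the fold rule, and HMRKO + MI versus LC + MI gave 4400, against 1762 with the fold rule and 2564 to 4663 with a liver left out. HMRKO + sham versus LC + sham gave 5, against 51 with DESeq2, 84 without a filter, 3 with the replicate block, 1 in the sham livers alone and 0 to 14 with a liver left out. The interaction gave 2175, against 1441 with the fold rule and 983 to 2268 with a liver left out.

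With each group's mean removed, livers of the same number had correlations of −0.135 to 0.182, against −0.227 to 0.146 for livers of different numbers. With 3 livers per group, these values cannot tell whether the numbers mark pairs. With the replicate number as a block, of all member calls only that of Upp2 between HMRKO + MI and LC + MI livers was lost (adjusted p = 0.0522 from edgeR, 0.0014 to 0.180 over its alternatives).

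The differences that turned were small. With a liver left out, the log2 fold change of Hlf with MI ran between −0.10 and 0.18 in HMRKO livers and between −0.13 and 0.13 in LC livers (0.0013 with the block), and its interaction between −0.090 and 0.20. Between HMRKO + MI and LC + MI livers Dbp ran between −0.35 and 0.32, Hlf between −0.15 and 0.041 and Nfil3 between −0.22 and 0.23. Between HMRKO + sham and LC + sham livers Bhlhe40 ran between −0.34 and 0.32 (0.049 with the block), Hlf between −0.26 and 0.041, Nfil3 between −0.039 and 0.64 and Usp2 between −0.084 and 0.53. At 12 hours Ciart ran between −0.29 and 0.00092, and was at 0.041 without a filter. Leaving out mitochondrially encoded genes was not run at 12 hours, since that table was found to list none.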
